A study of Mus musculus with 60 samples.

Results

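The effect of genotype was measured in whole mouse embryos at 13.5 days post coitum (d.p.c.), on the 20 of 60 arrays of the series that carry this age. Each genotype was represented by 5 pools of RNA from 3 embryos, and every pool was hybridised to 1 MOE430A and 1 MOE430B chip, which were joined by their replicate number to give 10 pools of the 30 in the series. The wild-type and Mstn-null animals were both labelled C57BL/6J, with the loss of Mstn as the labelled difference between them. The loss of Mstn was not limited to a tissue or a cell type by any label, the sexes of the pooled embryos were not stated, and Mstn itself was not analysed here. The later samples, fetal hindquarters (17.5 d.p.c.) and pectoralis muscle from mice aged 35 days (d35), were used only where the genotype difference in embryos was set against a later one.

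Myostatin is a secreted member of the transforming growth factor-beta family that limits skeletal muscle mass; it binds activin type II receptors, whose type I partners phosphorylate Smad2 and Smad3, and follistatin and related proteins keep it from its receptors. At mid-gestation the first muscle fibres are forming, and in a whole embryo they are a small part of the RNA beside liver, blood, nervous system, cartilage and connective tissue. The chips of this type report a gene through probe sets, groups of short probes that each read 1 stretch of a transcript close to its 3′ end, and 1 gene can have several probe sets that read different ends, introns or overlapping transcripts.

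The values were log2 intensities, and array medians were 8.05 to 8.09 on chip A and 7.04 to 7.10 on chip B. Marker levels fitted the label of whole embryo, since embryonic globin Hba-x (13.9 to 14.1 over the 10 pools), the liver product Alb (12.9 to 13.5), the cartilage collagen Col2a1 (12.8 to 13.1), cardiac actin Actc1 (12.6 to 12.8) and the keratin Krt5 of skin (9.67 to 9.88) were all bright. Xist, which is transcribed from the inactive X chromosome of females, read 5.92 in MSTN-null pool 5 and 9.79 to 10.89 in the other 9 pools, and the Y-linked Eif2s3y read 7.16 in that pool, 6.77 in MSTN-null pool 3 and 5.28 to 6.55 elsewhere. Neither gene was called, and the sexes pooled were not known. The control probe sets for actin gave the clearest measured difference between the genotypes other than the genes themselves. Their 3′ minus 5′ value, which is larger where transcripts are less complete towards the 5′ end, was 0.276, 0.247, 0.299, 0.332 and 0.278 in MSTN-null pools 1 to 5 and 0.132, 0.138, 0.157, 0.224 and 0.198 in wild-type pools 1 to 5 (mean of both chips, log2 scale). The genotypes did not overlap, with a difference of -0.117 (exact permutation test over 252 assignments of the pools, two-sided, p = 0.00794), and the part of this in the results was not tested beyond the values given beside them. The Gapdh controls overlapped (0.144 to 0.258 in wild-type pools against 0.229 to 0.282, exact permutation test, p = 0.0714).

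Transcripts that differed were nearly all higher in wild-type, by modest factors, and they included RNA-binding proteins, chromatin regulators, motor and cytoskeletal proteins and kinases. Of 45037 probe sets, 243 (0.54%) had a Storey q under 0.05 in limma; 231 (0.513%) were higher and 12 (0.0266%) lower in wild-type. They name 198 of 18193 genes (1.09%), and 39 of the called probe sets name no single gene. The median fold of the higher ones was 1.24, with a range of 1.13 to 1.94, and 18 of them reached 1.4-fold. The lower ones ranged from 0.618-fold to 0.875-fold. Over all probe sets the difference was balanced, with 50.3% of them positive, and the median between-pool SD within a genotype was 0.077. The genotypes did not overlap in 1079 probe sets (2.4%), 748 of them higher and 331 lower in wild-type. The count of calls rested on which pools were used, as it was 1 without wild-type pool 1, 479 without wild-type pool 5, 26 to 68 without MSTN-null pool 1, 3, 4 or 5, 85 without wild-type pool 2 and 46 without wild-type pool 3. Since pools hold whole embryos, fewer cells of a type and less RNA per cell cannot be told apart in any of these values.

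**Figure D1:**
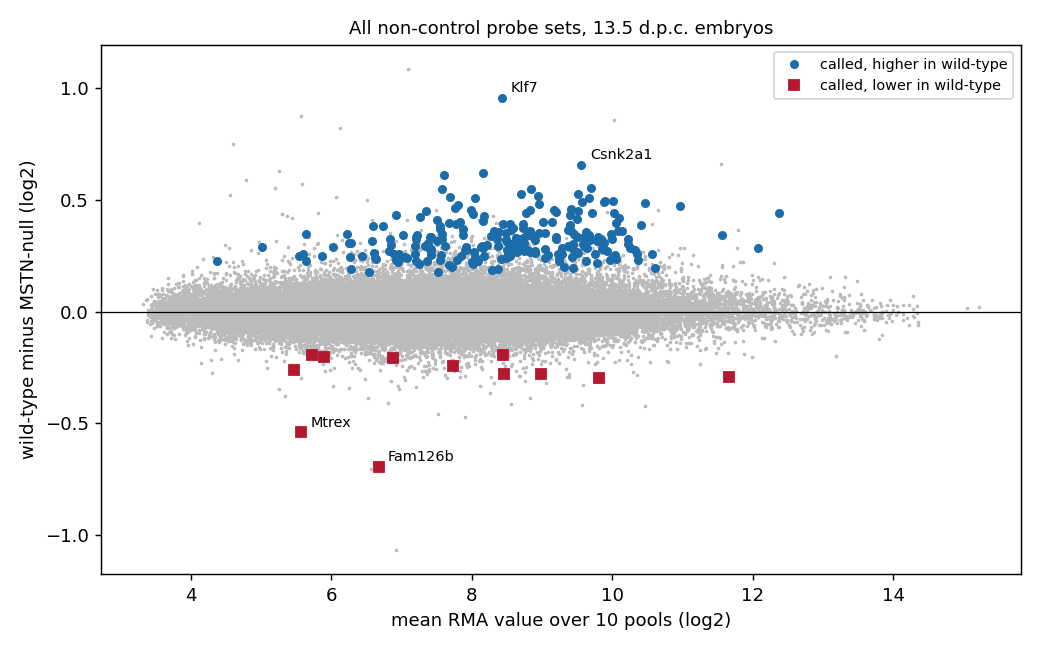
Difference between wild-type and MSTN-null embryos (log2, y axis) against the mean RMA value over the 10 pools (log2, x axis) for every non-control probe set; blue circles are the 231 called higher and red squares the 12 called lower in wild-type, grey points the rest. The calls sit mostly between 7 and 11 on the x axis and above 0, with Klf7 at the top of them and Fam126b at the bottom.

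The largest call was a probe set of Klf7, a Kruppel-like zinc finger factor of developing neurons. Its values were 9.09, 8.90, 8.96, 8.86 and 8.73 in wild-type pools 1 to 5 and 7.98, 8.004, 7.79, 8.12 and 7.86 in MSTN-null pools 1 to 5. Every wild-type pool exceeded every MSTN-null pool, and the difference was 0.96 ± 0.067 (SE; 1.94-fold, q = 1.28e-05). Csnk2a1 encodes the catalytic alpha subunit of casein kinase 2, and its called probe set read 10.09, 9.96, 10.07, 9.70 and 9.59 in wild-type and 9.31, 9.31, 9.08, 9.09 and 9.33 in MSTN-null embryos. Wild-type pools 1, 2 and 3 were the highest, wild-type 4 and 5 were closer to the MSTN-null pools, and the groups did not overlap (1.58-fold, difference 0.66 ± 0.09, q = 0.0137). Fam126b, which encodes a partner of a phosphatidylinositol 4-kinase at the plasma membrane, moved the other way. The values of its called probe set were 6.44, 6.62, 6.34, 6.06 and 6.18 in wild-type and 7.17, 7.07, 7.07, 6.76 and 7.04 in MSTN-null pools, without overlap, at 0.618-fold (-0.69 ± 0.093, q = 0.0137).

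**Figure D2:**
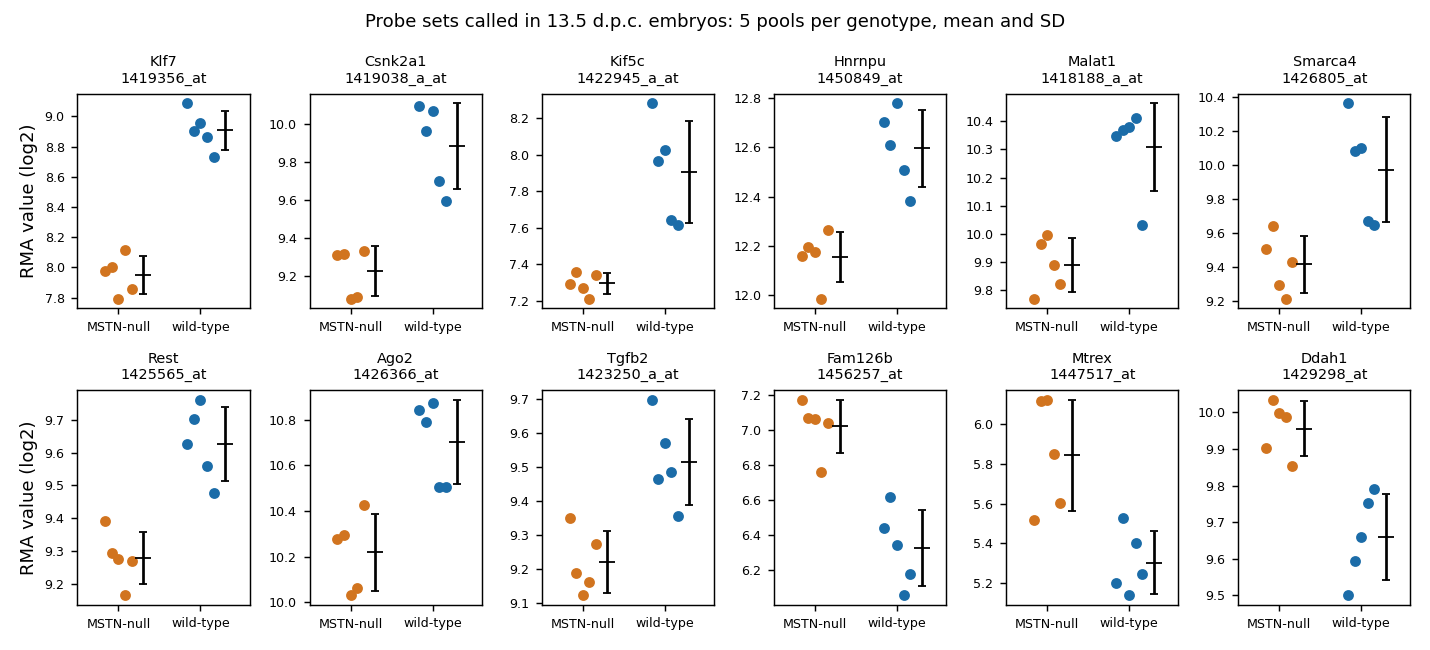
RMA values (log2, y axis) of 12 called probe sets in 5 MSTN-null pools (orange) and 5 wild-type pools (blue), in replicate order from left to right, with the mean and SD of each genotype beside them as a bar; the y axes differ and do not start at 0. Wild-type replicates 4 and 5 are the lowest wild-type pools for Klf7, Csnk2a1, Kif5c, Hnrnpu, Smarca4, Rest and Ago2, while Mtrex overlaps between the genotypes.

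Because the called genes moved together, their promoters were looked at, and those of these 3 genes are shown as the ones with the largest differences in each direction. RefSeq windows of build GRCm38.p6 run from 250 bases before to 50 bases after a start site, and the one furthest upstream was taken for each gene. The 250 bases before the start are printed 5′ to 3′ on the strand of the gene, at chr1:64121390-64121639 (minus) for Klf7, chr2:152226590-152226839 (plus) for Csnk2a1 and chr1:58586334-58586583 (minus) for Fam126b. Capitals mark GGGCGG, the GC box bound by Sp factors, or its reverse complement CCGCCC.
Klf7: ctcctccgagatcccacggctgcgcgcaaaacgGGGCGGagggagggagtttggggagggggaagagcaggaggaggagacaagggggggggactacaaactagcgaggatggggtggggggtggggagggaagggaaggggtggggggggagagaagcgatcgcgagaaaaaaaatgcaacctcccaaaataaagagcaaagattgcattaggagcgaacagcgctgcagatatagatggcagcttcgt
Csnk2a1: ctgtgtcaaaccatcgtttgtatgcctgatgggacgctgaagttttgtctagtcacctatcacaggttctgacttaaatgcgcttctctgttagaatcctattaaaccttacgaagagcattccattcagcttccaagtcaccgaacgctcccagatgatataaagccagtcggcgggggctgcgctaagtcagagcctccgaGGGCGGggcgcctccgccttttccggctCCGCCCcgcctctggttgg
Fam126b: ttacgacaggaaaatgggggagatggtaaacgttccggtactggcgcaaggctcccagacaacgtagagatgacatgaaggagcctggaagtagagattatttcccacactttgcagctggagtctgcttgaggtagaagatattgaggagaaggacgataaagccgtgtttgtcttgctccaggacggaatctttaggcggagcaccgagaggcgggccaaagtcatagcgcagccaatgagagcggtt
The Klf7 stretch holds 1 GC box, that of Csnk2a1 holds 2 and that of Fam126b none. Windows of 300 bases were found for 153 genes with a probe set called higher and for 14452 measured genes in all, and both strands were searched. GGGCGG was in 105 of the 153 (68.6%) and in 54% of all windows. For the Kruppel-like factor motif CACCC the shares were 63.4% and 62.5%, for the Smad motif CAGACA 17% and 17.5%, for the E-box CAGCTG of muscle regulators 11.1% and 16%, for CCAAT 32.7% and 38.4%, and for TATAAA 9.8% and 9.87%. The GC box can occur in any CpG-rich sequence, and a match is a description of the letters only. The median ratio of observed to expected CpG was 0.849 in the 153 windows and 0.674 in all, and the median GC content 63.7% and 58.7%.

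Genes that bind, splice, silence or degrade RNA were called in each subgroup listed, and the calls inside these lists were higher in wild-type. For hnRNPs, SR proteins and 3′ end genes this was 1 probe set each, of 58, 61 and 57, numbers in which 0.54% is under 1 call. Mtrex and Ppil3, which act in RNA degradation and the spliceosome but are in neither list, were called lower. They are described with the lower calls. Among 74 splicing factors and hnRNPs, 5 of 263 probe sets (1.9%) were called, against 0.54% of all probe sets, and the brightest probe set of 58 of the 74 genes was higher in wild-type, against 42.7% of the 18193 genes, with a median difference of 0.04 against -0.01. Hnrnpu, a nuclear hnRNP that also binds chromatin, had values of 12.70, 12.61, 12.78, 12.51 and 12.38 in wild-type and 12.16, 12.19, 12.17, 11.98 and 12.26 in MSTN-null pools. The genotypes were separate, at 1.36-fold (q = 0.016). Snrnp70, the U1 snRNP protein (1.36-fold, q = 0.0222), Rbm25, a regulator of splice site choice (1.25-fold, q = 0.0206), Nono, a paraspeckle protein (1.18-fold, q = 0.0169), and Tra2a (1.22-fold, q = 0.0494) were the other 4. Of the genes for deadenylation, decay and silencing, 5 of 99 probe sets (5.05%) were called. They were Zfp36l1, which brings AU-rich mRNAs to decay (1.28-fold, q = 0.0137), the quadruplex helicase Dhx36 (1.26-fold), the Argonaute Ago2 (1.4-fold), its partner Tnrc6b (1.22-fold) and the nuclear exonuclease Xrn2. Ago2 read 10.85, 10.79, 10.88, 10.51 and 10.51 in wild-type and 10.28, 10.29, 10.03, 10.06 and 10.43 in MSTN-null pools, where wild-type 4 and 5 stood close to MSTN-null pool 5. The 3 other probe sets of Ago2 lay on the other side, between -0.10 and -0.06, and were not called. For each of them the genotype effect differed from that of the called probe set (limma, q of 0.0184 or less). In the same list the 3′ end gene Cpsf2, a subunit of the cleavage complex, was 1.26-fold higher (q = 0.0404). The direction of the decay list as a whole turned with the way of summarising a gene, since its median was -0.002 for the brightest probe sets and 0.024 for the mean of all probe sets of a gene.

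Long noncoding RNAs had 6 called probe sets of 59 (10.2%), against 0.54% of all probe sets, from 4 of 16 genes, and 3 of the 6 were of Malat1 alone. By the brightest probe set 7 of the 16 genes were positive, with a median of -0.0041 that turned to 0.0074 with the mean of all probe sets of a gene. The called probe set of Tug1, which is bound by chromatin repressors, was 1.29-fold higher in wild-type (q = 0.0137). Those of Snhg11 and the imprinted Rian were 1.32-fold (q = 0.018) and 1.19-fold (q = 0.0372) higher. The other probe sets of Tug1 differed by 0.0068 and -0.02, and that of Snhg11 by -0.09. The genotype effect of each differed from that of the called one (limma, q of 0.014 or less). The 3 other probe sets of Rian differed by 0.07 to 0.17. Malat1, a nuclear speckle RNA, was called by 3 probe sets. The first of them, 1418188_a_at, gave 10.35, 10.37, 10.38, 10.41 and 10.03 in wild-type and 9.77, 9.97, 10.00, 9.89 and 9.82 in MSTN-null embryos; wild-type pool 5 lay well under the other wild-type pools and still above all MSTN-null pools (1.34-fold, q = 0.0169). The other called probe sets of Malat1 were 1.39-fold and 1.27-fold higher.

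Chromatin regulators had 14 of 256 probe sets (5.47%, against 0.54% of all) called, from 14 of 93 genes, all higher in wild-type. This list and the others were chosen with earlier results of these data known, so their shares of calls are descriptions. Shares also varied with level, as 0.951% of all probe sets at a mean of 8 to 10 were called higher. The mean of the brightest probe sets of the chromatin list was 9.45 to 9.54 over the pools. The remodelling ATPases were led by Smarca4, the BRG1 subunit of BAF complexes, with 10.36, 10.08, 10.10, 9.67 and 9.64 in wild-type and 9.50, 9.64, 9.30, 9.21 and 9.43 in MSTN-null pools. Wild-type pool 5 and MSTN-null pool 2 were level, and the q was 0.0471 (1.47-fold). Chd4, the ATPase of the NuRD complex, read 9.23, 9.03, 9.15, 8.81 and 8.74 in wild-type and 8.56, 8.61, 8.46, 8.52 and 8.59 in MSTN-null pools (1.36-fold, q = 0.0215), again with wild-type 4 and 5 nearest to the MSTN-null pools. Smarcc1, Baz2b, Atrx and Smarca5 were called as well, at 1.3-fold for Baz2b, 1.23-fold for Atrx and 1.2-fold for Smarca5. Rest, which represses neuronal genes outside neurons, had values of 9.63, 9.70, 9.76, 9.56 and 9.48 against 9.39, 9.29, 9.28, 9.16 and 9.27 (1.27-fold, q = 0.0169), with no overlap. The 3 other probe sets of Rest differed by -0.07 to 0.04, and the genotype effect of each differed from that of the called one (limma, q of 0.0223 or less). Among writers, erasers and readers of histone marks, the demethylase Kdm5a (1.37-fold), the acetyltransferase Crebbp (1.32-fold), the polycomb protein Suz12 (1.19-fold), Kdm5b and the bromodomain proteins Brd2, Brd3 and Brd8 were called. In the brightest probe set of each gene, 52 of the 93 chromatin genes were higher, with a median of 0.02. Of 17 histone genes none of 23 probe sets was called, and 5 of 622 probe sets (0.804%, near the 0.54% of all) for 336 genes named Zfp were, among them Zfp62 (1.29-fold) and Zfp445 (1.18-fold).

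Other nuclear genes, named here after their values were seen, had called probe sets with differences of similar size. Among DNA methylation enzymes, the methyltransferase Dnmt3a differed by 0.40 and the oxidase Tet1 by 0.27 on the log2 scale. The chromosome-folding factor Ctcf stood at 0.42, the cohesin loader Nipbl at 0.28, the condensin subunit Smc4 at 0.37 and Smc6 at 0.39. Transcription factors of developing tissues included Sox11 (0.49) and Sox4 (0.23), the nuclear receptor Nr2f2 (0.41), Zeb2 (0.34), Nfib (0.33), Prox1 (0.31) and Foxp1 (0.23). Of splicing regulators outside the list, Rbfox2 was at 0.35, Luc7l3 at 0.34, Pnn at 0.32 and Mbnl3 at 0.31. Near the transforming growth factor-beta pathway but outside its list, the kinase Map3k7 (0.39) and Pmepa1 (0.34), a known target and inhibitor of it, were called as well. Each of these was 1 called probe set of 2 to 8. Sox4 and Foxp1 have 8, of which the uncalled ones ranged from -0.01 to 0.25 and from -0.04 to 0.20. All uncalled ones were positive for Dnmt3a, Smc4, Prox1, Pnn and Pmepa1, and all were negative for Ctcf (-0.04) and Luc7l3 (-0.04 and -0.03). The other genes held both signs, with a range of -0.11 to 0.01 for Tet1 and of -0.20 to 0.11 for Zeb2. The tropomyosin gene Tpm1 (0.32) and the guidance receptor Epha4 (0.37) were also called.

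The cytoskeleton and its motors had called members in each list. For kinesins and dyneins these were 2 of 106 probe sets (1.89%), and for tubulins and microtubule-binding proteins 2 of 62 (3.23%), against 0.54% of all. By the brightest probe set 28 of the 66 microtubule and motor genes were higher in wild-type, with a median of -0.01. That is 42.4%, near the 42.7% of all genes. For the kinesin-1 heavy chain Kif5c, found mostly in neurons, wild-type pools had 8.28, 7.97, 8.02, 7.64 and 7.61 and MSTN-null pools 7.29, 7.36, 7.27, 7.21 and 7.34. Wild-type pool 1 was the highest and pools 4 and 5 the lowest wild-type values, and none overlapped with MSTN-null (1.53-fold, q = 0.0172). Its relative Kif5b was 1.21-fold higher, the microtubule-associated Map1b 1.43-fold and the plus-end protein Clasp1 1.27-fold. Of the 82 probe sets for 32 actin assembly genes, 3 (3.66%, against 0.54% of all) were called, for the Arp2/3 activator Wasl (1.43-fold, q = 0.0137), the filament-capping Tmod2 (1.29-fold, q = 0.0137) and Gmfb (1.22-fold, q = 0.0149). The brightest probe sets of 25 of these 32 genes were higher in wild-type, and the mean over the list was 10.50 to 10.54 in wild-type and 10.46 to 10.49 in MSTN-null pools, without overlap. Of the 44 lists only this one had pool means without overlap, and 2.4% of all probe sets had no overlap. The mean includes the called probe set of Tmod2, so its separation is not independent of the calls. In membrane traffic the Golgi exchange factor Gbf1 was 1.4-fold higher, and the glycosyltransferase Galnt2, which starts O-linked sugar chains, was called by separate probe sets at 1.41-fold and 1.44-fold. The first of these gave 10.36, 10.17, 10.29, 9.99 and 9.89 in wild-type and 9.59, 9.71, 9.67, 9.60 and 9.65 in MSTN-null embryos, without overlap. Wnk1, a kinase that regulates chloride cotransporters, was 1.41-fold higher (q = 0.0137), with 10.38, 10.22, 10.45, 10.19 and 10.02 in wild-type and 9.73, 9.81, 9.64, 9.80 and 9.80 in MSTN-null pools. Translation factors had 3 calls in 133 probe sets (2.26%, against 0.54% of all), for Eif3a (1.46-fold), the repressor Eif4ebp2 (1.26-fold) and Eif5 (1.22-fold). The E3 ligase Cbl (1.26-fold), the chaperone Hsp90aa1 (1.22-fold), the proteasome subunit Psmd7 (1.17-fold) and the branched-chain dehydrogenase subunit Dbt (1.34-fold) were called too. No probe set was called among 105 for ribosomal proteins, 169 for the respiratory chain, 38 for glycolytic enzymes, 104 for nuclear transport or 48 for Hox genes, and lists of these sizes hold at most about 1 call at the share of 0.54% of all probe sets.

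The 12 lower calls were each of a different gene. Mtrex, the helicase of the nuclear exosome, came next to Fam126b in size, with 5.20, 5.53, 5.14, 5.40 and 5.24 in wild-type and 5.52, 6.12, 6.12, 5.85 and 5.60 in MSTN-null pools. MSTN-null pool 1 lay just under wild-type pool 2, so the genotypes overlapped (0.687-fold, q = 0.0387). This probe set of Mtrex was dim, at a mean level of 5.57. The brighter 1426718_at, at 9.17, differed by 0.10 in the other direction, and the genotype effect differed between these probe sets (0.64 ± 0.12, limma, q = 0.0124). Ddah1, which degrades the nitric oxide synthase inhibitor dimethylarginine, read 9.50, 9.59, 9.66, 9.75 and 9.79 in wild-type and 9.90, 10.04, 10.00, 9.99 and 9.85 in MSTN-null embryos, separate in every pool (0.814-fold, q = 0.0288). The 4 other probe sets of Ddah1 differed by -0.10 to 0.08, and the genotype effect of 2 of them differed from that of the called one. The spliceosomal isomerase Ppil3 (0.823-fold, q = 0.0209), Nif3l1 (0.823-fold, q = 0.0246), the securin Pttg1 (0.817-fold, q = 0.0427), the aspartyl protease Bace2 (0.844-fold), the centromere protein Cenpi (0.874-fold), Fam189a1 (0.867-fold), the mitochondrial carrier Slc25a16 (0.869-fold) and the lymphocyte GTPase Gimap7 (0.875-fold) followed. A muscle myosin, Myh1, the heavy chain of fast 2X fibres, was called at a low level. The call was of 1427868_x_at, a probe set of the x_at type, whose probes can read other genes. Its values were 5.30, 5.24, 5.45, 5.36 and 5.36 in wild-type and 5.73, 5.48, 5.68, 5.49 and 5.63 in MSTN-null pools (0.835-fold, q = 0.0476), without overlap. The 2 other probe sets of Myh1 differed by -0.17 and -0.18 without being called.

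The size of the higher calls varied between wild-type pools together with the actin controls. The mean of the 231 probe sets was 8.75, 8.68, 8.71, 8.59 and 8.51 in wild-type pools 1 to 5 and 8.33, 8.37, 8.30, 8.27 and 8.33 in MSTN-null pools 1 to 5, while the mean of the 12 lower ones was 7.43 to 7.50 in wild-type and 7.72 to 7.82 in MSTN-null embryos. Wild-type pools 4 and 5, with the largest actin values of that genotype, had the lowest means of the higher calls, and MSTN-null pool 2, with the smallest actin value of its genotype, had the highest. With the actin value as a covariate, an alternative chosen after the data were seen that nearly coincides with genotype, the median difference of the 231 went from 0.31 to 0.13 and its median SE from 0.057 to 0.108, and 209 stayed positive. In that fit 1 probe set was called, that of Fam126b (-1.23 ± 0.116), and Klf7 had a difference of 0.84 ± 0.14 that was not called. The medians of the 12 lower calls were -0.27 without and -0.23 with the covariate. The part of RNA integrity in the differences cannot be told apart from genotype in these pools.

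**Figure D3:**
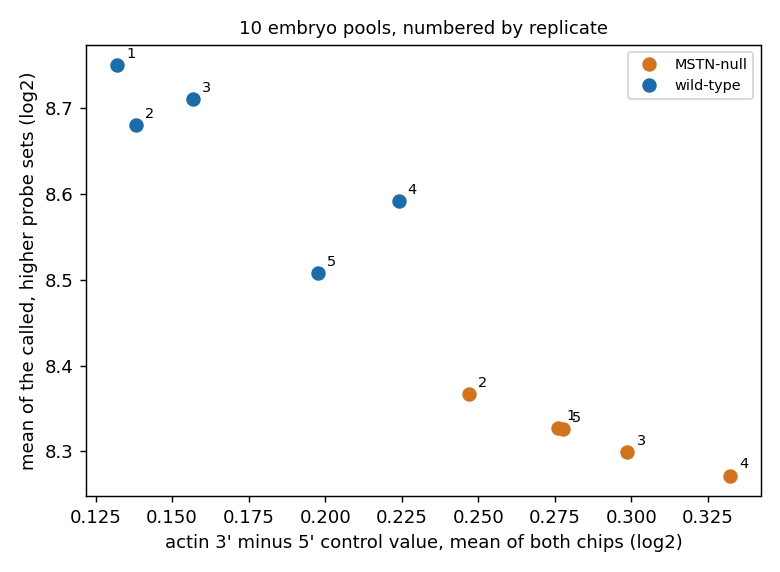
Mean RMA value of the 231 probe sets called higher (log2, y axis) against the actin 3′ minus 5′ control value of the pool (log2, x axis) for 5 wild-type (blue) and 5 MSTN-null pools (orange), numbered by replicate. Wild-type pools lie at 0.132 to 0.224 and 8.51 to 8.75, MSTN-null pools at 0.247 to 0.332 and 8.27 to 8.37; the y axis was built from probe sets chosen for their genotype difference.

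The probe sets of a gene often gave different answers. Of the 198 genes with a call, 190 had 2 or more probe sets, and only 5 of them, Malat1, Galnt2, Ddx6, Smc1a and Phip, were called by more than 1. The 557 uncalled probe sets of the genes called higher had a median difference of 0.03, and 356 of them (63.9%) were positive, against 50.3% of all probe sets. In 61 of the 190 genes every other probe set had the sign of the called one. By the brightest probe set of each gene alone, 59 of 18193 genes (0.324%) were called. To test the disagreement itself, the log2 difference between 2 probe sets of a gene was formed in every pool and fitted with limma over all 30372 such combinations, from 9010 genes. The genotype effect differed in 622 of them (2.05%) and in 349 genes (3.87%), of which 140 were among the genes with a call. In 474 of the 622 the members had opposite signs, in 307 exactly 1 member was called, in 315 neither and in 0 both. Without wild-type pool 1 there were 82 such combinations and without wild-type pool 5 there were 981, and without any 1 of the MSTN-null pools 183 to 392.

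Klf7 showed this most clearly, since its 3 other probe sets differed by 0.12, 0.08 and 0.06. Probe set 1419354_at, the brightest, read 9.64, 9.67, 9.57, 9.49 and 9.53 in wild-type and 9.50, 9.54, 9.50, 9.52 and 9.55 in MSTN-null pools. Those values overlapped, and the difference between this probe set and the called one was 0.90 ± 0.069 (q = 4.34e-06). The other probe sets of Csnk2a1 lay between 0.0027 and 0.18, and the brightest, 1419037_at, differed by 0.04 ± 0.037. Kif5c differed by 0.61 in its called probe set and by -0.04 ± 0.059 in its brightest, 1455266_at. For the actin regulator Wasl the called probe set stood at 0.51 and 1432155_at at -0.10; the latter had 6.89, 6.91, 6.95, 6.92 and 6.81 in wild-type and 7.10, 6.93, 6.96, 6.98 and 7.02 in MSTN-null embryos, and the pair differed with q = 0.00296. The HMG-box factor Bbx (0.62 against 0.06, q = 0.00826), the limb mesenchyme factor Prrx1 (0.55 against -0.03, q = 0.00841), the neural factor Sox11 (0.49 against 0.02, q = 0.00826), Gbf1 (0.48 against -0.05, q = 0.00841), Fam126b (-0.69 against 0.0047, q = 0.00826) and Malat1 (0.42 against -0.08, q = 0.00826) also held discordant pairs.

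Some pairs had estimates of opposite sign. The kinase Gsk3b, which marks beta-catenin for destruction, was called through 1437001_at, with 10.66, 10.62, 10.74, 10.55 and 10.41 in wild-type and 10.27, 10.40, 10.14, 10.07 and 10.17 in MSTN-null pools. Through 1434439_at it read 8.35, 8.28, 8.39, 8.50 and 8.44 in wild-type and 8.49, 8.66, 8.44, 8.58 and 8.45 in MSTN-null pools, a difference of -0.13 ± 0.053 that was not called and overlapped. The pair differed by 0.52 ± 0.081 (q = 0.00826). Klf6, a Kruppel-like factor of the injury response, had no call but a pair at 0.22 and -0.22 whose difference was 0.44 ± 0.068 (q = 0.00826). The genes called by more than 1 probe set held discordant pairs as well, 6 each in Malat1 and Phip, 4 in Ddx6 and 2 each in Galnt2 and Smc1a. Both called probe sets of Ddx6, the P-body helicase, rose (1.37-fold and 1.29-fold), as did those of the cohesin subunit Smc1a (1.21-fold and 1.28-fold) and of Phip (1.22-fold and 1.26-fold). The brightest probe set of Ddx6, 1434697_at, differed by 0.05 ± 0.039, that of Smc1a by -0.02 ± 0.04 and that of Phip by -0.02 ± 0.047, and each was discordant with both called probe sets of its gene. Where each probe set lies on its transcript was not analysed here, and the part of the actin difference in these discordant pairs was not tested.

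**Figure D4:**
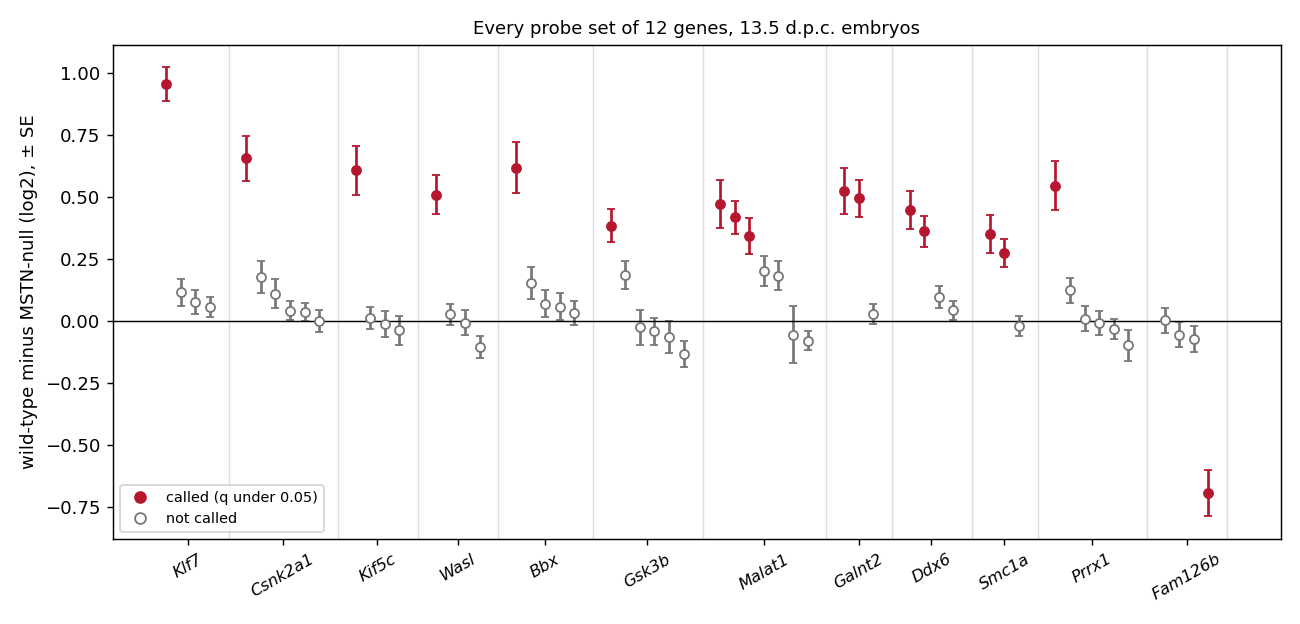
Wild-type minus MSTN-null difference (log2, y axis) with its SE for every probe set of 12 genes, filled red where called and open grey where not. All 12 genes hold called and uncalled probe sets, and the uncalled ones lie between -0.13 and 0.20.

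The probe sets called higher shared some features that the test did not use. Their median level was 8.56 against 7.48 for all probe sets. The share called higher was 0.0796% below a mean level of 6, 0.385% from 6 to 8, 0.951% from 8 to 10 and 0.62% above 10. By target sequence, 0.262% of the probe sets designed on RefSeq transcripts and 0.649% of those designed on GenBank entries other than full-length cDNAs were called higher. Among design classes, 0.813% of the probe sets with names ending in a_at, which read several transcripts of 1 gene, were called higher. The share was 0.504% for the plain ones and 0.123% for the x_at type, whose probes can read other genes. The 186 genes called higher had a median span of 50.3 kb in the genome, and all 18032 genes with a position 20.3 kb. They were spread over every autosome and the X chromosome, from 0.312% of the measured genes of chromosome 14 to 2.25% of those of chromosome 12. These are descriptions, and level, length and number of probe sets were not separated.

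Tissue lists held calls at about the share of all probe sets. Of 365 probe sets for 190 genes of 15 tissues, 2 were called, where 0.54% of all probe sets were, for the neuronal RNA-binding protein Elavl4 and for Prrx1. The called probe set of Elavl4 read 9.74, 9.55, 9.64, 9.62 and 9.43 in wild-type and 9.13, 9.39, 9.26, 9.37 and 9.31 in MSTN-null pools, without overlap (1.23-fold, q = 0.0364). The 2 other probe sets of Elavl4 differed by -0.01 and -0.0013. The genotype effect of 1450258_a_at, at -0.01, differed from that of the called one (0.32 ± 0.06, limma, q = 0.0143). The skeletal muscle list, which does not hold Myh1, had no call at this age: 10 of 29 were higher in wild-type by their brightest probe set, with a median difference of -0.05. Acta1, Mylpf, Myl1 and Myh8 of the contractile apparatus were on the lower side, with -0.25 ± 0.11 for the neonatal heavy chain Myh8 (q = 0.308), whose pools ranged from 7.41 to 7.82 in wild-type and from 7.54 to 8.22 in MSTN-null. The myogenic regulators Myod1, Myf5, Myog, Pax3 and Pax7 each differed by 0.04 or less in either direction in their brightest probe set.

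Among tissue lists, those of neurons and neural progenitors were the ones most often above 0. The neural crest and Schwann cell list was not, with 3 of 8 genes higher in wild-type and a median of -0.03. Of 20 neuron genes 19 were higher in wild-type (median 0.08), and of 13 neural progenitor genes 12 were (median 0.07), while 42.7% of all genes were. The mean of the neuron list was 10.25, 10.05, 10.12, 10.17 and 10.11 in wild-type and 9.95, 10.11, 10.10, 10.07 and 10.02 in MSTN-null pools. The ranges overlapped, wild-type pool 1 was the highest and MSTN-null pool 1 the lowest. Without a pool in turn the median of this list stayed between 0.04 and 0.11 and that of the progenitors between 0.03 and 0.11. Sox2, a factor of neural stem cells, read 8.75, 8.53, 8.67, 8.75 and 8.56 in wild-type and 8.24, 8.58, 8.67, 8.48 and 8.48 in MSTN-null embryos, which overlapped (0.16 ± 0.07, q = 0.297). The proneural factor Neurog2 (0.18) and the Notch target Hes5 (0.12) were likewise uncalled.

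Liver and macrophage genes lay on the other side. All 11 liver genes had a negative difference (median -0.18) and all 11 macrophage genes too (median -0.05), though none was called. The mean of the liver list was 10.16, 10.77, 10.37, 10.13 and 10.37 in wild-type and 10.73, 10.29, 10.58, 10.39 and 10.62 in MSTN-null pools. Wild-type pool 2 was the highest of all 10, so the overlap was wide, and leaving out a pool at a time gave medians from -0.33 to -0.12. Fga, a fibrinogen chain of the liver, had the largest difference at -0.29 ± 0.15 (q = 0.362), and Alb was at -0.20 ± 0.081. In macrophages the leukocyte phosphatase Ptprc had -0.16 ± 0.05 (q = 0.161), and the receptor Csf1r -0.04 ± 0.055. MSTN-null pool 1 had the lowest neuron mean and the highest liver mean of its genotype, and wild-type pool 2 had the lowest neuron mean and the highest liver mean of its own. In the remaining lists, 5 of 16 cartilage and bone genes, 2 of 10 erythroid genes, 5 of 12 endothelial genes, 6 of 10 skin genes and 9 of 17 limb mesenchyme genes were higher in wild-type, with medians of -0.06 to 0.04. So were 4 of 12 heart genes, 4 of 7 smooth muscle genes, 4 of 7 kidney and gonad genes and 2 of 10 lens and retina genes. The medians of these ran from -0.05 to 0.01.

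**Figure D5:**
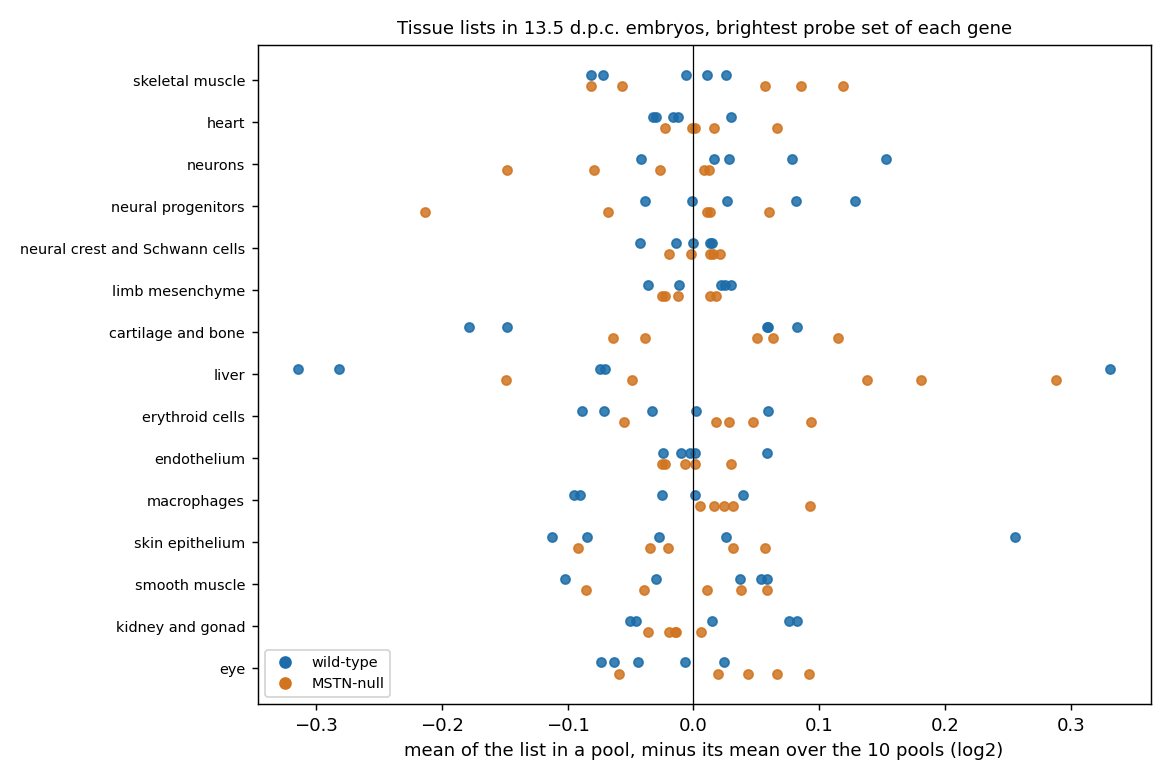
Mean log2 level of each tissue list in a pool minus its mean over the 10 pools (x axis), for 15 lists (y axis), with wild-type pools in blue and MSTN-null pools in orange. The genotypes overlap in every list, and liver is the list with the widest spread between pools.

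In the pathway of myostatin itself, 1 of 78 probe sets for 37 genes was called (1.28%), and at 0.54%, the share of all probe sets, a list of this size holds under 1 call. This was the ligand gene Tgfb2, with 9.70, 9.46, 9.57, 9.48 and 9.36 in wild-type and 9.35, 9.19, 9.12, 9.16 and 9.27 in MSTN-null pools. Wild-type pool 5 and MSTN-null pool 1 almost touched (1.23-fold, q = 0.04), and the 3 other probe sets of Tgfb2 differed by -0.05, -0.02 and 0.0004. The receptors, 4 of 7 of them positive, had a median difference of 0.00032, with 0.05 ± 0.042 for the type I receptor Tgfbr1. Of the 13 inhibitors 6 were positive and the median was -0.0078, with Smad7, the inhibitory Smad, at 0.13 ± 0.049 (q = 0.236). Smads and their targets were positive in 8 of 10 genes with a median of 0.06, and none was called; Smad3 stood at -0.04 ± 0.041 in its brightest probe set. Among BMP genes, 1 of 34 probe sets was called, which is again a single call in a short list, for the receptor-activated Smad1, with 8.27, 8.19, 8.49, 8.23 and 8.22 in wild-type and 8.04, 7.995, 7.97, 7.91 and 8.05 in MSTN-null embryos, without overlap (1.22-fold, q = 0.0288). Its brighter probe set 1448208_at had -0.00086 ± 0.039.

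WNT signalling had 6 of 164 probe sets called (3.66%), against 0.54% of all probe sets, and all 6 were higher in wild-type. By the brightest probe set 33 of the 66 genes were positive, with a median of 0.00021. Besides Csnk2a1 and Gsk3b the calls were the corepressor Tle1 (1.37-fold, q = 0.0404), Crebbp, Smarca4 and the target Ccnd1, cyclin D1 of the cell cycle. Those of Crebbp and Smarca4 were also counted among the chromatin regulators. The other probe set of Tle1 differed by -0.01, and 2 others of Crebbp by -0.06 and -0.03. The genotype effect of each differed from that of the called one of its gene (limma, q of 0.0206 or less). Ccnd1 gave 9.44, 9.35, 9.36, 9.38 and 9.22 in wild-type and 9.22, 9.17, 9.02, 9.03 and 9.02 in MSTN-null pools, a 1.2-fold difference (q = 0.0364) in which wild-type pool 5 and MSTN-null pool 1 were level. The calls were of intracellular components, nuclear factors and targets; none of 19 probe sets for ligands, 34 for receptors and 17 for secreted inhibitors was called, numbers in which 0.54% is under 1 call, and the difference between roles was not tested. Of the same roles, 2 of 10 ligands, 4 of 14 receptors and 5 of 9 inhibitors were positive. Beta-catenin, Ctnnb1, differed by 0.02 ± 0.043. Notch (10 of 16 genes positive), hedgehog (7 of 11) and IGF and AKT genes (8 of 19) had no call; Igf2r, the receptor that clears IGF2, came closest (0.26 ± 0.061, q = 0.0681), with 11.07, 11.10, 11.10, 10.80 and 10.83 in wild-type and 10.79, 10.72, 10.65, 10.71 and 10.74 in MSTN-null pools, which did not overlap. Its other probe set differed by -0.11, and the pair was discordant (0.37 ± 0.087, q = 0.0314). Genes that the study chose as regulators from these samples were not called at this age. The study chose them by how genes vary together, which does not require a gene to differ between the genotypes. It reported itself that Ctnna1 was not differentially expressed. Tmsb4x, an actin monomer binder, differed by 0.0084 ± 0.034, the alpha-catenin Ctnna1 by 0.03 ± 0.042 and the mitochondrial channel Vdac1 by 0.06 ± 0.04 in their brightest probe sets, with 95% intervals of -0.06 to 0.08, -0.06 to 0.12 and -0.03 to 0.14.

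The differences in embryos were set against those at later ages in 1 model of all 30 pools. Against hindquarters at 17.5 d.p.c. the genotype difference of embryos differed for 0 probe sets (0%) in limma, 0 by Benjamini-Hochberg and 2821 at an unadjusted p under 0.05; the smallest q was 0.106. The genotype difference of embryos alone also gave 0 calls in a fit of all 30 pools, so this 0 cannot show that the ages are alike. Of the 243 embryo calls, which were chosen for their difference in embryos, 155 had an unadjusted p under 0.05 in this limma contrast. The 231 probe sets called higher had a median difference of -0.04 at 17.5 d.p.c., with 76 of them positive, and of 0.03 at d35, with 136 positive, where 50.5% and 44% of all probe sets were positive. Each age has its own wild-type pools. None of the 243 was called at 17.5 d.p.c. on its own, and 10 were at d35, 3 of them in the same direction. The study itself reported no differentially expressed gene at 17.5 d.p.c. and many at d35. The share of all probe sets called at each of these ages is not given here, so the counts show nothing particular to the embryo calls. Klf7 was 1 of the 3, at 0.96 in embryos, 0.58 in hindquarters and 0.75 in pectoralis, and its differences between ages were not called. Fam126b had -0.69 in embryos, -0.62 in hindquarters and 0.09 in pectoralis. Between 13.5 d.p.c. and d35 the genotype difference differed for 526 probe sets (1.17%), of which 18 were embryo calls, and 272 without wild-type pool 1 of the embryos. Ddah1 went from -0.30 in embryos to 0.39 at d35 (q of the change 0.00068), Tgfb2 from 0.29 to -0.41 (0.00482), Eif3a from 0.55 to -0.34 (0.027) and Kif5b from 0.27 to -0.19 (0.027). At d35 on their own, Ddah1 (q = 0.00766) and Tgfb2 (q = 0.00994) were called in limma, while Eif3a (q = 0.202) and Kif5b (q = 0.197) were not. The tissue changed with the age in these comparisons, so age and tissue cannot be told apart.

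Genes beside Mstn on chromosome 1 were looked at last. Among 409 probe sets of the 100 measured genes on each side, 4 (0.978%) were called, against 0.54% of all probe sets. By direction, 3 of the 409 were called lower, where 0.0266% of all probe sets were, and 1 was called higher, where 0.513% were. Klf7, the 78th gene on 1 side, was higher in wild-type, and Ppil3, Nif3l1 and Fam126b, the 37th, 38th and 41st genes on that side, were lower. Ppil3 read 8.76, 8.87, 8.95, 8.81 and 8.84 in wild-type and 9.18, 9.23, 9.12, 9.01 and 9.11 in MSTN-null pools, and Nif3l1 8.26, 8.36, 8.14, 8.38 and 8.42 and 8.54, 8.66, 8.57, 8.59 and 8.61. Both were separate in every pool. The second probe set of Nif3l1 differed by -0.15 ± 0.045 and that of Ppil3 by 0.05 ± 0.041, without being called. The genes next to Mstn, 1700019D03Rik and 1700019A02Rik, differed by -0.02, 0.05 and 0.04 in their 3 probe sets, all uncalled.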

How the data were processed

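Total RNA of 5 pools per genotype, each of 3 embryos, was copied with a T7-oligo(dT) primer, labelled with biotin as cRNA and hybridised to MOE430A and MOE430B chips. The deposited values are log2 intensities that the authors made with RMA in the affy package, whose version is not given in the sources used here. RMA corrects background, equalises the distributions of arrays and summarises probes, so a change shared by most transcripts would be removed. The arrays give no read depth, and their number limits the precision.

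The A and B arrays of a pool were joined by genotype and replicate number. For 7 of 10 pools the chip B array resembled its own chip A partner most. The 64 control probe sets of each chip were left out of the tests, which leaves 45037 probe sets. Of these, 34945 name 1 gene in the platform annotation, 932 several and 9160 none, and 34741 were matched to current RefSeq symbols by gene ID. Genes were compared with limma 3.58.1 in R 4.3.3 (wild-type minus MSTN-null), and calls required a Storey q under 0.05 over all probe sets; where a gene needed 1 value, its brightest probe set stood for it. The same test was run on the difference between 2 probe sets of a gene, and on the difference between ages in all 30 pools. Actin 3′ minus 5′ values were compared by exact permutation. The p-values measure the spread between pools. Scripts were tested on simulated data.

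Probe sets are named if they were called lower, had the 25 smallest q or 15 largest differences among the higher calls, were among up to 4 called members of a list role, the brightest or most changed tissue or pathway members, genes called more than once, the 12 genes with the smallest q among the probe set pairs, sex-linked genes, genes the study names at this age or neighbours of Mstn. Other probe sets of those genes are included, and other named genes were chosen after their values were seen. The members and lists were chosen with earlier results of these data known. Alternatives were another adjustment of p, each chip alone, a filter at a mean of 6, quantile normalization, centring, limma with trend and robust, a single fit of all pools, a replicate block, 1 probe set per gene, each pool left out, and, added later, actin as a covariate. Promoter windows come from RefSeq, build GRCm38.p6.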

Additional observations from a re-analysis of the deposited data

Results flagged for a closer look

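Differences in genotype effect between embryos and d35 pectoralis were the largest set, with 526 probe sets in limma. Among the embryo calls named here, the effect in embryos minus that at d35 was 0.886 for Eif3a, 0.7019 for Tgfb2, 0.7001 for Galnt2 (1425610_s_at), 0.535 for Psmd7, 0.4735 for Snhg11, 0.4646 for Kif5b and -0.6847 for Ddah1, each with a Storey q of 0.0308 or less in limma. Age and tissue cannot be told apart in these differences.

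Single pools lay far from the other 4 of their genotype in 11 of 202 groups checked by Dixon's ratio, where chance gives about 1 in 20. In wild-type pool 5 this held for Malat1 (10.03 by the probe set 1418188_a_at, the nearest other pool at 10.35), Nono (8.441, nearest 8.546), Phip (9.726, nearest 9.993), Psmd7 (9.2, nearest 9.369) and Zcchc14 (8.621, nearest 8.818), each on the side of the MSTN-null pools. Wild-type pool 3 was high for Smad1 (8.492, nearest 8.267). Among MSTN-null pools, pool 4 was low for Dnajc2 (8.781, nearest 9.004) and Phip (9.414, nearest 9.649), pool 3 low for Gimap7 (5.731, nearest 5.821) and pool 2 high for Cenpi (8.614, nearest 8.54). Xist was at 5.918 in MSTN-null pool 5, where the nearest other pool had 9.788. The actin value of wild-type pool 5 was 0.198, the second largest of its genotype, and its part in these values was not tested.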

How the results depend on the processing

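The 243 calls became 159 with Benjamini-Hochberg adjustment, 44 on chip B alone, 148 with arrays centred on their median, 14 with 1 probe set per gene, 1 with an actin covariate, added after the data were seen, and 0 in a single limma fit of all 30 pools, which shares the spread of the later tissues and gave 1792 probe sets at an unadjusted p under 0.05 and 0 by Benjamini-Hochberg. The other settings gave 167 to 347. Leaving out 1 pool gave from 1 call (without wild-type pool 1) to 479 (without wild-type pool 5). The 622 discordant pairs became 327 when the tests were limited to pairs on 1 chip, and ranged from 82 (without wild-type pool 1) to 981 (without wild-type pool 5). Against 17.5 d.p.c., leaving out a pool gave 0 or 1 call, and against d35 from 272 (without wild-type pool 1) to 431 (without wild-type pool 5) in place of 526. The actin difference kept its direction on each chip and with any pool left out.

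Same-numbered pools of the genotypes did not deviate together, with correlations from -0.1 to 0.0757 and 1 of 5 pools closest to its own number, so the numbers were not taken to pair them. With a replicate block there were 204 calls, 605 discordant pairs, 69 probe sets whose effect differed from that at 17.5 d.p.c. and 641 from that at d35.

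Of 1577 values for 82 called probe sets under these settings, 841 kept their direction and their side of the threshold, 729 kept only the direction and 7 turned. All 7 turned with the actin covariate, to -0.061 for Cpsf2, -0.039 for Eif5, -0.006824 for Galnt2 (1425610_s_at), -0.014 for Prrx1, -0.19 for Smarca4, -0.071 for Smc1a (1417831_at) and -0.027 for Tle1. For 12 of 44 lists the median changed sign when all probe sets of a gene were averaged. The cause of these shifts was not tested.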
